A study of Homo sapiens with 18 samples.

Results

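Homologous recombination and the Fanconi anaemia pathway were followed through 37 genes, chosen by gene symbol from the roles of their products in DNA repair and matched to the Entrez identifiers of the data. All 37 were among the 18475 genes listed, and no member had a value below 1 FPKM (fragments scaled by transcript length and library size) in any library. Expression was measured by RNA-seq in 3 human lung lines whose genotype is labelled wild type: BEAS-2B, an immortalised bronchial epithelial line, H446, labelled a small cell lung cancer line, and A549, labelled an adenocarcinoma line. Each line had 3 libraries of untreated control cells and 3 of cells harvested 24 h after 10 Gy of X-rays, 18 libraries in 6 groups. No separate time was given for the controls, and the library titles call them before and the irradiated libraries after. If the controls were harvested earlier, time in culture and dose cannot be told apart. A line is the progeny of a single tumour or tissue sample, so line, cancer type and the person of origin cannot be told apart. Nothing in the labels says that the 3 libraries of a group came from separate cultures, so the p-values may measure technical spread alone.

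Cells repair a broken chromosome by homologous recombination when an intact sister copy can serve as the template. The broken ends are cut back to single strands, BRCA1, PALB2 and BRCA2 prepare them for exchange, the single strand invades the sister, and the joined molecules are separated again. The Fanconi anaemia proteins recognise crosslinks between the strands, ubiquitinate the FANCD2 and FANCI pair and call in nucleases, and inherited loss of either route raises cancer risk. The 37 genes were sorted into 8 roles: end processing (5), BRCA1 and BRCA2 with their partners (4), RAD51B, RAD51C, RAD51D, XRCC2 and XRCC3 (5), annealing and strand exchange (3), the Fanconi core complex with its conjugating enzyme (9), the FANCD2 and FANCI pair (2), a helicase, nucleases and scaffold of the Fanconi pathway (4), and the separation of joined molecules (5).

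The total per library lay between 461255 and 529936 FPKM. The smallest steps between low values corresponded to between 12600000 and 15200000 reads per library, a depth inferred from the values. Markers were compared with the labelled cell types. Keratins 7, 8 and 18 were the main part of an epithelial list whose summed level was between 1306 and 1506 FPKM in BEAS-2B libraries, 3335 and 3998 in H446 and 1435 and 1798 in A549. CDH1, a further marker of that list, stayed below 1 FPKM in every BEAS-2B library (0.31 to 0.54) and every H446 library (0.49 to 0.74). A549 libraries had 6.74 to 11.34 FPKM of CDH1. EPCAM, also listed, was at most 3.06 FPKM in any library, and KRT19 ran from 1.51 to 27.42 FPKM. The epithelial sum therefore reflects keratins and does not describe CDH1 or EPCAM. Of 7 neuroendocrine markers, 4 were in the data. Their summed level in the libraries labelled H446 was between 0.11 and 0.33 FPKM, with CHGA, NCAM1 and DDC at or near 0. The neuroendocrine sum was 4.31 to 5.95 FPKM in BEAS-2B, most of it NCAM1, and 2.93 to 3.76 FPKM in A549 libraries, most of it SYP. The name H446 is therefore used for the label, and small cell identity was not seen in these markers. Alveolar type II markers, including the surfactant genes, summed to at most 0.76 FPKM in BEAS-2B libraries, 0.33 in H446 and 1.31 in A549. Of the basal bronchial markers KRT17 was abundant in BEAS-2B and H446 libraries, with list sums of 159 to 188 and 724 to 919 FPKM, whereas KRT5 was listed at or near 0 in every library and the A549 sum was at most 1.03 FPKM. Fibroblast markers summed to at most 13.6 FPKM in BEAS-2B libraries, 29.7 in H446 and 15.5 in A549. The leukocyte and endothelial list, of which 4 of 5 genes were in the data, reached 12.9, 14.3 and 33.5 FPKM, most of it CD68. PTPRC and VWF were at or near 0 in every library. The endothelial marker PECAM1 was between 3.40 and 4.03 FPKM in H446 libraries and at or near 0 in the other lines.

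1 library stood apart. The library labelled BEAS-2B 10 Gy replicate 2 had p53 target genes at the level of its controls: the median log2 difference of 12 targets from the control mean was 0.06 there against 0.85 and 1.07 in the other irradiated BEAS-2B libraries. CDKN1A, the cell cycle inhibitor induced by p53, was at 79.9, 86.4 and 86.1 FPKM in the BEAS-2B controls and at 309.7, 102 and 488 FPKM after 10 Gy, in the order of the replicates. The main BEAS-2B results are therefore also given without that library.

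In unirradiated cells, the members were most often highest in BEAS-2B. By mean FPKM, 20 of 37 were highest in BEAS-2B controls, 9 in those of H446 and 8 in those of A549, and 21 were lowest in A549. Over all 12854 genes, 37.4% were highest in BEAS-2B, 33.3% in A549 and 29.4% in H446. For 28 members the libraries of the 3 lines formed 3 separate ranges, beside 62% of genes, and the median ratio of the highest to the lowest line mean was 2.16. In control A549 against control BEAS-2B cells, 10 members were higher and 24 lower by limma (adjusted p under 0.05), beside 38.8% and 46.3% of genes tested. H446 controls had 11 members higher and 21 lower than BEAS-2B controls, beside 36.0% and 46.7% of genes. Against A549 controls, 21 members were higher and 13 lower in H446, beside 41.4% and 43.1%. The members' median log2 difference was -0.63 for A549 and -0.28 for H446 against BEAS-2B, where the medians of all genes were -0.07 and -0.09. In whole-culture RNA, fewer cells in a given cell cycle phase and less RNA per cell cannot be told apart, and genes of the cell cycle were lower as well, with medians of -1.40 in A549 and -0.41 in H446 for DNA replication and of -1.04 and -0.55 for mitosis. Their part in the members' levels was not tested.

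**Figure D1:**
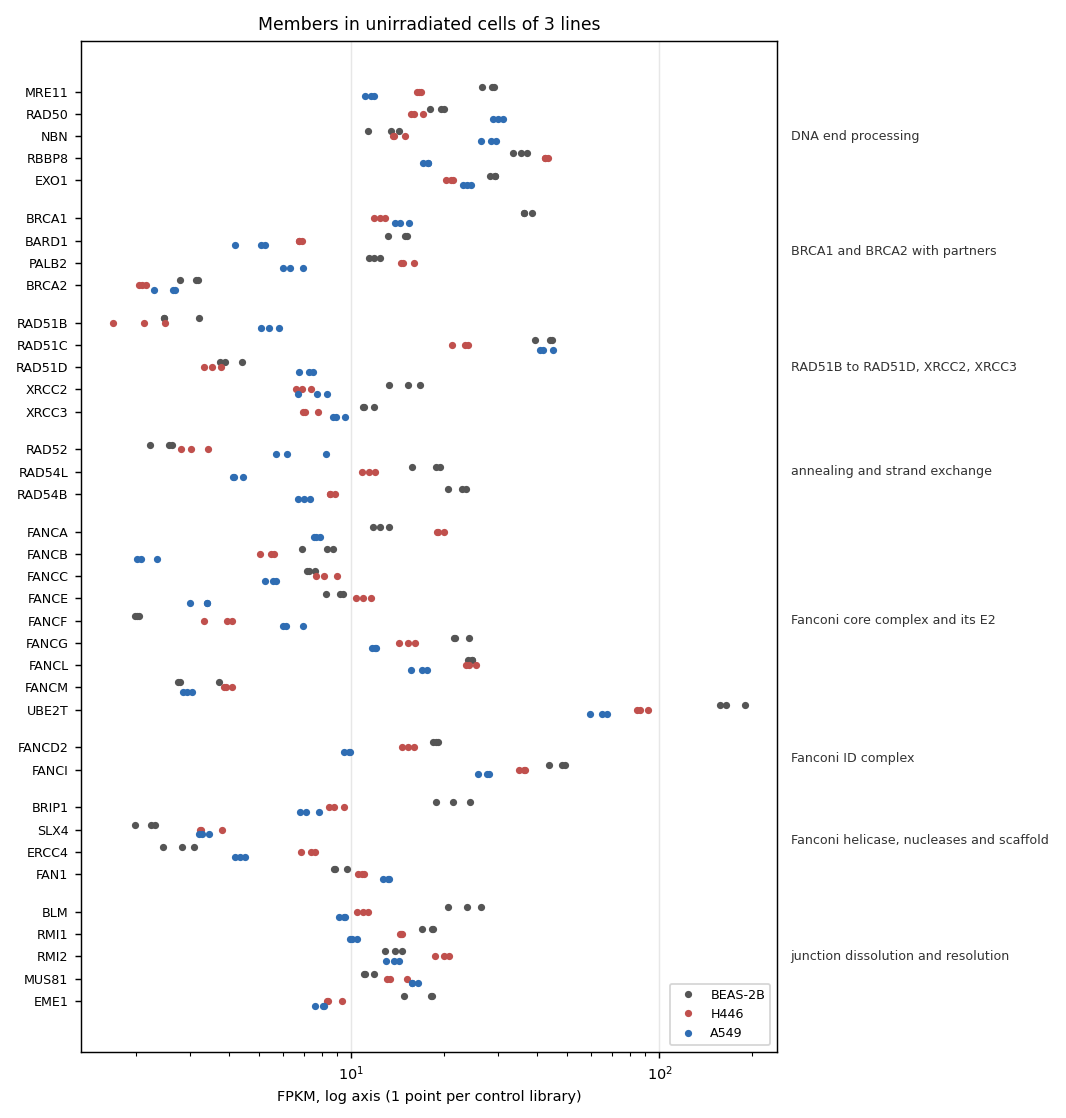
FPKM of each of the 37 members, ordered by role, in the 3 control libraries of BEAS-2B, H446 and A549 cells, on a log axis with 1 point per library. UBE2T is the most abundant member in every line, and 20 members are highest in BEAS-2B.

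The end-binding complex did not move as a unit between lines. MRE11, its nuclease, was at 29.1, 26.5 and 28.6 FPKM in control BEAS-2B cells, 16.3, 16.6 and 16.9 in H446 and 11.1, 11.6 and 11.8 in A549. RAD50, its ATPase, was at 19.5, 20.0 and 18.1 FPKM in control BEAS-2B cells, 15.6, 17.1 and 16.01 in H446 and 30.98, 28.8 and 30.02 in A549. NBN, its signalling subunit, was at 14.3, 11.3 and 13.4 FPKM in control BEAS-2B cells, 13.7, 14.97 and 13.8 in H446 and 29.5, 26.3 and 28.4 in A549. MRE11 was thus lowest and its partners highest in A549, with no overlap between A549 and the other lines for any of the 3 genes. The log2 differences of A549 from BEAS-2B controls were -1.22, 0.62 and 1.06 for MRE11, RAD50 and NBN (limma adjusted p 1.34e-10, 2.2e-07 and 3.08e-08). RAD50 shares 79.7% of its exonic bases in GENCODE 29 with a readthrough gene on the same strand, so its level is uncertain.

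Genes of strand exchange and BRCA1 were among those that differed most between controls on the log2(FPKM + 1) scale, while ratios of mean FPKM put FANCB (3.72) and FANCE (3.35) above RAD54B (3.18) and BRCA1 (3.01), with RAD54L first (4.23). RAD54L, a motor protein that drives strand exchange, was at 15.7, 18.8 and 19.4 FPKM in control BEAS-2B cells, 11.97, 10.8 and 11.4 in H446 and 4.16, 4.46 and 4.12 in A549. Its relative RAD54B was at 22.8, 20.6 and 23.6 FPKM in control BEAS-2B cells, 8.84, 8.55 and 8.51 in H446 and 6.73, 7.36 and 7 in A549. Both were highest in BEAS-2B and lowest in A549 with no overlap between lines, and the log2 differences of A549 from BEAS-2B were -1.85 and -1.54 (standard errors 0.08 and 0.06, limma adjusted p 1.09e-10 and 7.16e-11). RAD54B shares 59.1% of its exonic bases with FSBP and is uncertain for that reason. RAD52, which anneals single strands, had the reverse order, with 2.22, 2.55 and 2.61 FPKM in control BEAS-2B cells, 2.79, 3.42 and 3.02 in H446 and 5.68, 6.19 and 8.26 in A549. BRCA1, a ubiquitin ligase that helps prepare broken ends for exchange, was at 38.7, 36.4 and 36.4 FPKM in control BEAS-2B cells, 11.9, 12.3 and 12.9 in H446 and 14.4, 13.9 and 15.4 in A549. Every BEAS-2B control lay above every control of the other lines, and the log2 difference of H446 from BEAS-2B was -1.52 (standard error 0.05, limma adjusted p = 2.86e-11). BRIP1, the helicase that binds BRCA1, was at 24.3, 18.8 and 21.3 FPKM in BEAS-2B and 9.46, 8.47 and 8.75 in H446 controls, a log2 difference of -1.18 (limma adjusted p = 3.46e-08). BRCA2, which prepares single strands for exchange, was low in all lines and varied less, with 3.14, 2.78 and 3.18 FPKM in control BEAS-2B cells, 2.15, 2.09 and 2.04 in H446 and 2.64, 2.28 and 2.68 in A549. BEAS-2B was highest without overlap, and the A549 libraries all lay above those of H446.

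Within the Fanconi core complex the lines differed subunit by subunit. UBE2T, the conjugating enzyme, was the most abundant member in every line, at 171 ± 16.8 FPKM (SD, n = 3) in control BEAS-2B cells, 87.6 ± 3.57 in H446 and 64.1 ± 4.24 in A549. FANCE, which ties the core complex to FANCD2, was at 8.30, 9.42 and 9.17 FPKM in control BEAS-2B cells, 10.9, 11.6 and 10.4 in H446 and 3, 3.39 and 3.40 in A549. FANCB, a partner of the ligase subunit, was at 8.34, 6.90 and 8.71 FPKM in control BEAS-2B cells, 5.62, 5.48 and 5.05 in H446 and 2.08, 2.01 and 2.34 in A549. A549 had the lowest values of both genes without overlap. H446 exceeded A549 by 1.49 on the log2 scale for FANCE (limma adjusted p = 3.23e-10), and A549 differed from BEAS-2B by -1.51 for FANCB (limma adjusted p = 1.92e-09). FANCF, the adaptor subunit, ran the other way, with 1.98, 2.01 and 2.04 FPKM in control BEAS-2B cells, 4.10, 3.32 and 3.95 in H446 and 6.96, 6.02 and 6.13 in A549. RBBP8, which starts end resection, was highest in H446, with 43.4, 42.6 and 42.6 FPKM against 37.2, 33.5 and 35.6 in BEAS-2B and 17.7, 17.7 and 17.02 in A549 controls, and H446 exceeded A549 by 1.25 on the log2 scale (limma adjusted p = 4.1e-11).

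After 10 Gy, no member passed the test in BEAS-2B cells, 7 rose and 16 fell in H446 cells, and 7 rose and 13 fell in A549 cells. limma called 0.0% of the 11734 genes tested in BEAS-2B, where 1446 genes and 18 members had an unadjusted p under 0.05. Calls in H446 cells covered 14.8% (higher) and 23.6% (lower) of 11479 genes, and in A549 cells 25.3% and 26.4% of 11993. No rise that passed reached 0.5 on the log2 scale. Falls of that size passed for 3 members in H446 (RMI2, RAD51D and XRCC3) and 2 in A549 (EXO1 and MUS81). Beside them, 2.81% and 7.81% of genes passed at that limit in either direction. The median log2 fold changes of the members were -0.10 in A549, -0.07 in H446 and -0.15 in BEAS-2B cells, where the medians of all genes were -0.00, -0.03 and 0.00. A log2 fold change here is that of FPKM + 1, which understates changes of genes of low level. Groups of 3 against 3 allow an exact permutation p no smaller than 0.10 for a single gene, so calls rest on the model fitted across all genes.

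**Figure D2:**
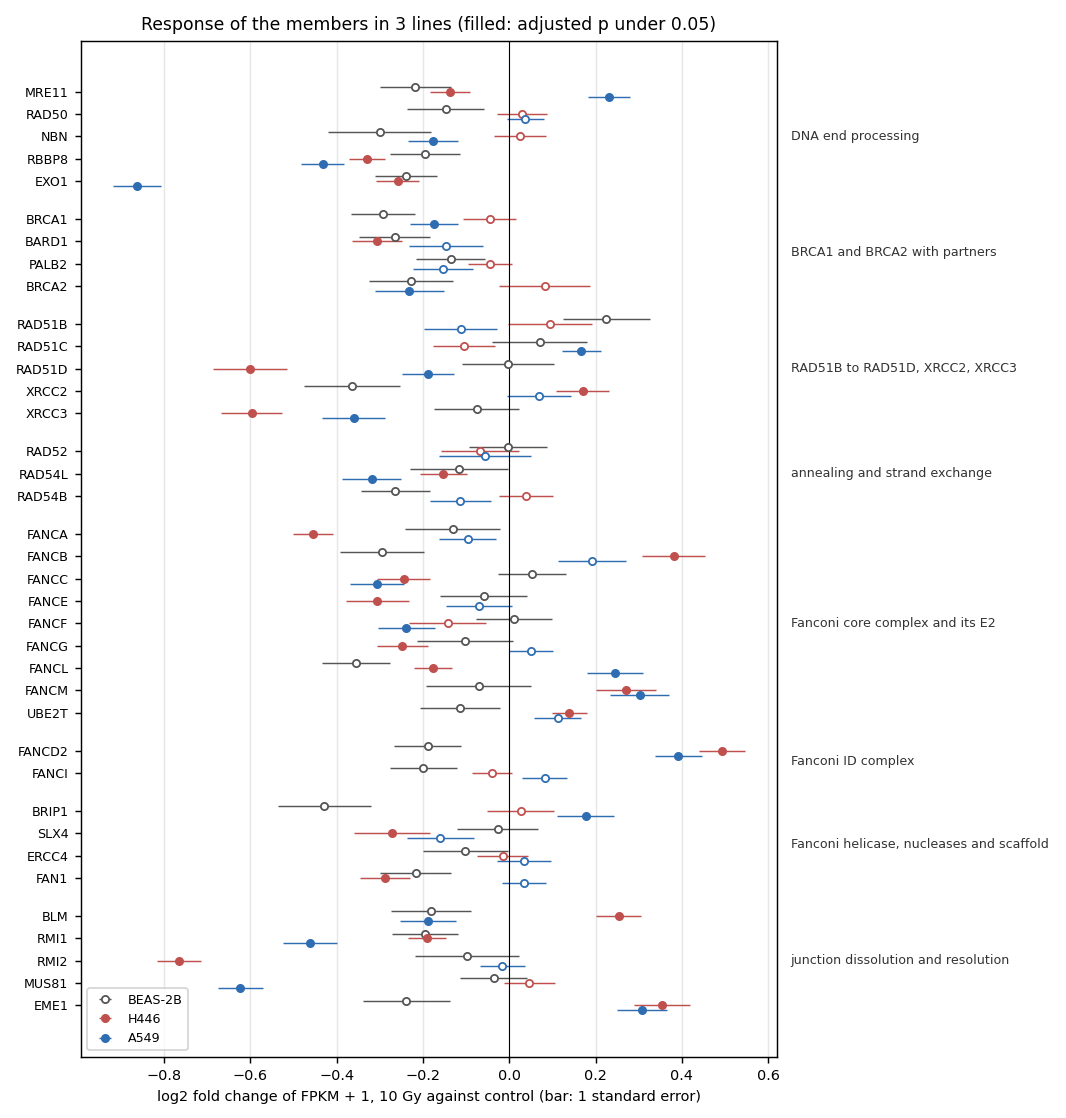
Log2 fold change of FPKM + 1 after 10 Gy for each of the 37 members, ordered by role, in each line. Bars are 1 standard error, filled points have an adjusted p under 0.05, and 33 of the 37 BEAS-2B points lie below 0.

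In BEAS-2B cells 33 of 37 members had a log2 fold change below 0, where the median of all genes was 0.00. Below 0 were also 28 of 30 DNA replication genes and 10 of 24 mitosis genes. For 13 members all 3 irradiated libraries lay below all 3 controls, beside 8.87% of genes tested. No member had all irradiated libraries above the controls, beside 7.48% of genes. The 13 were MRE11, RBBP8 and EXO1 of end processing, BRCA1 and BARD1, RAD54B, FANCB and FANCL of the core complex, FANCD2 and FANCI, BRIP1 and FAN1, and RMI1. Without 10 Gy replicate 2, 21 members lay below and 1 above, beside 13.2% and 13.8% of genes. FANCL, the catalytic ligase subunit, was then the 1 member called, at a log2 fold change of -0.41 (standard error 0.08, limma adjusted p = 0.0306), where 0.0771% of genes (9) were called lower and 224 genes higher. FANCL stood at 23.8, 24.7 and 24.6 FPKM in the controls and 17.3, 20.3 and 18.98 after 10 Gy, and the groups did not overlap. In a fit of all 18 libraries with 1 shared estimate of the spread, 12 members were called lower and none higher, beside 2.76% of genes (324) called lower and 498 genes called higher. With the replicate number as a block, 4 members were called lower (FANCL, BRCA1, XRCC2 and BRIP1), beside 0.81% of genes (95), with 344 genes and no member called higher. The number of calls in BEAS-2B thus depended on the fit. Fold changes were the same in the 18-library and block fits, and without 10 Gy replicate 2 the members' median was -0.20.

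BRCA1 in BEAS-2B was at 38.7, 36.4 and 36.4 FPKM in the controls and 28.2, 31.6 and 30.6 after 10 Gy. All irradiated libraries lay below the controls, and the log2 fold change of -0.29 (standard error 0.07) did not pass the test across all genes (limma adjusted p = 0.246), nor without 10 Gy replicate 2 (-0.33, limma adjusted p = 0.0774). It did pass in the fit of all 18 libraries and with the replicate block (limma adjusted p 0.011 and 0.0356). BRCA1 in H446 was at 11.9, 12.3 and 12.9 FPKM and then 10.9, 12.7 and 12.3, overlapping groups with a log2 fold change of -0.05 (limma adjusted p = 0.585). In A549 it went from 14.4, 13.9 and 15.4 to 12.3, 13.5 and 12.4 FPKM, groups that did not overlap, and fell by 0.18 on the log2 scale (limma adjusted p = 0.0201). That call ended when A549 control replicate 3, 10 Gy replicate 1 or 10 Gy replicate 3 was left out, with log2 fold changes from -0.16 to -0.14.

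BRCA2 in BEAS-2B was at 3.14, 2.78 and 3.18 FPKM in the controls and 2.39, 2.18 and 2.78 after 10 Gy, which touch at 2.78, with a log2 fold change of -0.23 (limma adjusted p = 0.391), and -0.17 without 10 Gy replicate 2 (limma adjusted p = 0.589). In H446 the values were 2.15, 2.09 and 2.04 and then 1.80, 2.26 and 2.84 FPKM, and the irradiated libraries lay on both sides of the controls. A549 had 2.64, 2.28 and 2.68 FPKM before and 1.85, 2.07 and 2.10 after, without overlap, a log2 fold change of -0.23 (limma adjusted p = 0.0282). Leaving out A549 control replicate 1, control replicate 3 or 10 Gy replicate 1 ended this call, at log2 fold changes from -0.21 to -0.19. BARD1, the partner of BRCA1 in the ligase, passed in H446, where it fell (-0.31, limma adjusted p = 0.00247), and its response did not differ between lines beyond the threshold. PALB2, the bridge between BRCA1 and BRCA2, passed in no line, with log2 fold changes of -0.14 for BEAS-2B, -0.04 for H446 and -0.15 for A549.

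The end processing genes had the largest fall of any member. EXO1, the exonuclease of long-range resection, was at 23.7, 23.02 and 24.4 FPKM in A549 controls and 11.8, 13.7 and 12.4 after 10 Gy. The groups were far apart, and EXO1 fell by 0.86 on the log2 scale (standard error 0.06, limma adjusted p = 1.83e-07). In H446 EXO1 was at 20.4, 21.3 and 21.1 and then 16.4, 18.5 and 17.1 FPKM, also without overlap, a fall of 0.26 (limma adjusted p = 0.00268). RBBP8 was at 43.4, 42.6 and 42.6 FPKM in H446 controls and 32.5, 33.96 and 35.4 after 10 Gy, and at 17.7, 17.7 and 17.02 and then 12.5, 13.4 and 12.2 FPKM in A549. Groups were separate in both lines, with log2 fold changes of -0.33 and -0.43 (limma adjusted p 0.000206 and 2.34e-05). MRE11 went in opposite directions, falling by 0.14 in H446 (limma adjusted p = 0.0361) and rising by 0.23 in A549 (limma adjusted p = 0.0021). The H446 call of MRE11 ended when any 1 of H446 control replicates 1, 2 and 3 or 10 Gy replicate 1 was left out, at -0.15 to -0.11. NBN fell in A549 with overlapping groups (-0.18, limma adjusted p = 0.023), a call that ended without A549 control replicate 1 or 3 or 10 Gy replicate 1 or 2, at -0.17 to -0.14. RAD50 passed in no line.

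**Figure D3:**
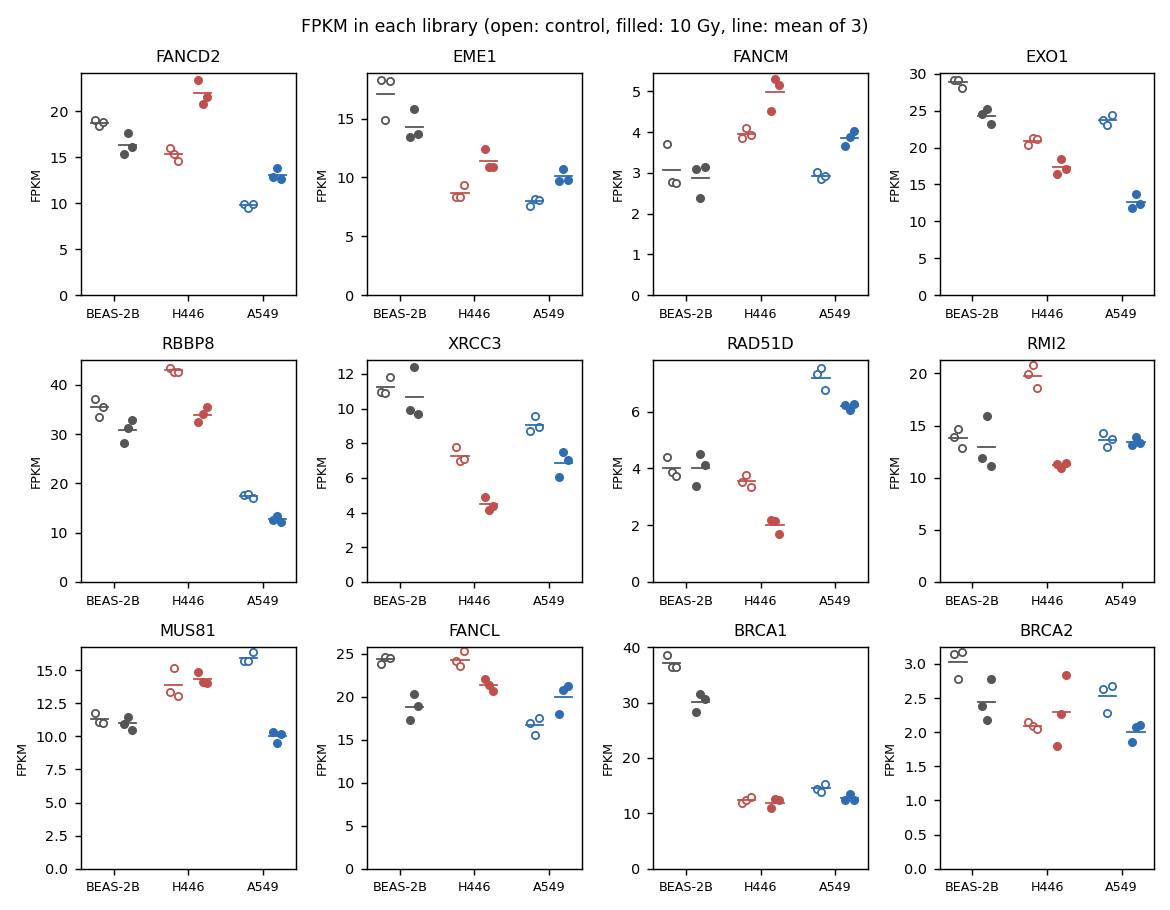
FPKM of 12 members in every library of BEAS-2B, H446 and A549 cells, with open points for controls, filled points for 10 Gy and a line at the mean of 3 libraries. FANCD2 is higher after 10 Gy in H446 and A549 cells and EXO1 is lower, with separate groups in both lines.

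Among RAD51B, RAD51C, RAD51D, XRCC2 and XRCC3, related genes that assist strand invasion, RAD51D and XRCC3 fell in both cancer lines. RAD51D was at 3.53, 3.78 and 3.33 FPKM in H446 controls and 2.19, 2.15 and 1.68 after 10 Gy, a fall of 0.60 (standard error 0.09, limma adjusted p = 0.000518) between separate groups. Its fall in A549 was 0.19 (limma adjusted p = 0.0196), a call lost without A549 control replicate 1 or 2 or 10 Gy replicate 2, at -0.18 to -0.16. XRCC3 was at 7.79, 6.95 and 7.07 FPKM in H446 controls and 4.89, 4.14 and 4.38 after 10 Gy, and at 8.70, 9.56 and 8.94 and then 6.05, 7.51 and 7.02 FPKM in A549. Neither line had overlapping groups, and the falls were 0.60 and 0.36 (limma adjusted p 0.000158 and 0.00139). XRCC3 shares 76.7% of its exonic bases with KLC1 on the opposite strand, and no source used here says that the strand of a read was used, so reads of the pair cannot be told apart. KLC1 itself had log2 fold changes of -0.03 in H446 and -0.11 in A549 cells (limma adjusted p 0.601 and 0.0306). KLC1 thus passed in A549, in the direction of XRCC3. RAD51D shares 9.4% of its exonic bases with other genes, most of them with a readthrough gene on its own strand. XRCC2 rose in H446 (0.17, limma adjusted p = 0.0483) and RAD51C in A549 (0.17, limma adjusted p = 0.00806), and RAD51B passed in no line. The XRCC2 call was lost without H446 control replicate 2 or 3 or 10 Gy replicate 2 or 3, at 0.14 to 0.17. RAD54L fell in H446 and A549 (-0.15 and -0.32, limma adjusted p 0.0494 and 0.00209), but its H446 call ended without any 1 of 5 of the 6 H446 libraries (all but 10 Gy replicate 1), at -0.19 to -0.12. RAD52 and RAD54B passed in no line.

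FANCD2, the protein whose ubiquitination marks the Fanconi response, had the largest rise of any member in both cancer lines. It was at 15.97, 15.3 and 14.6 FPKM in H446 controls and 23.4, 20.8 and 21.6 after 10 Gy. In A549 it was at 9.90, 9.47 and 9.86 FPKM and then 12.8, 13.9 and 12.7. Every irradiated library lay above every control in both lines, with log2 fold changes of 0.49 and 0.39 (standard errors 0.05 and 0.05, limma adjusted p 9.94e-05 and 8.12e-05). In BEAS-2B the order was reversed, with 19.1, 18.3 and 18.9 FPKM in controls and 15.4, 17.6 and 16.1 after 10 Gy, separate groups and a log2 fold change of -0.19 that did not pass the test (limma adjusted p = 0.375). Without 10 Gy replicate 2 that value was -0.24 (limma adjusted p = 0.221). FANCI, its partner, passed in no line, with log2 fold changes of -0.20 for BEAS-2B, -0.04 for H446 and 0.08 for A549.

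Of the 9 core complex genes, 3 rose and 5 fell in H446 cells, beside 14.8% and 23.6% of genes. In A549 cells 2 rose and 2 fell, beside 25.3% and 26.4%. FANCM, the motor protein that anchors the complex on DNA, rose in both, from 3.86, 4.10 and 3.93 to 4.53, 5.30 and 5.15 FPKM in H446 and from 3.03, 2.84 and 2.92 to 3.65, 3.87 and 4.02 FPKM in A549 cells. No irradiated library overlapped the controls, and the log2 fold changes were 0.27 and 0.30 (limma adjusted p 0.0113 and 0.00275). FANCA, the largest scaffold subunit, was at 19.1, 19.9 and 18.99 FPKM in H446 controls and 14.1, 14.2 and 13.3 after 10 Gy, a fall of 0.45 between separate groups (standard error 0.05, limma adjusted p = 5.86e-05). FANCA shares 23.6% of its exonic bases with ZNF276 on the opposite strand, which fell as well, by 0.37 on the log2 scale. FANCB rose in H446 from 5.62, 5.48 and 5.05 to 6.73, 8.11 and 7.13 FPKM, again without overlap (0.38, limma adjusted p = 0.00255). FANCC fell in both cancer lines, by 0.25 in H446 and 0.31 in A549 (limma adjusted p 0.011 and 0.00154). FANCL fell by 0.18 in H446 and rose by 0.24 in A549 (limma adjusted p 0.00987 and 0.00745), where it was at 17.0, 15.6 and 17.6 FPKM before and 18.04, 20.8 and 21.3 after. FANCE and FANCG fell and UBE2T rose in H446 (-0.31, -0.25 and 0.14), and FANCF fell in A549 (-0.24), but the responses of these 4 genes did not differ between H446 and A549 beyond the threshold. The UBE2T call ended without H446 control replicate 2 or 3 or 10 Gy replicate 3, at 0.11 to 0.13, and the FANCF call without A549 control replicate 1, at -0.18.

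Of the Fanconi helicase, nucleases and scaffold, FAN1 and SLX4 fell in H446 cells and BRIP1 rose in A549 cells. FAN1, a nuclease of crosslink repair, had a log2 fold change of -0.29 (limma adjusted p = 0.00339), and the nuclease scaffold SLX4 one of -0.27 (limma adjusted p = 0.0328). FAN1 shares 24.3% of its exonic bases with MTMR10 on the opposite strand. MTMR10 had log2 fold changes of -0.07 in H446 and -0.15 in A549 (limma adjusted p 0.426 and 0.0292). The SLX4 call ended without H446 control replicate 1 or 2 or 10 Gy replicate 2 or 3, at -0.30 to -0.21. BRIP1 was at 7.14, 6.80 and 7.84 FPKM in A549 controls and 8.32, 8.84 and 7.85 after 10 Gy, and at 24.3, 18.8 and 21.3 and then 13.8, 16.02 and 17.2 FPKM in BEAS-2B. Irradiated libraries were thus above the controls in A549 and below them in BEAS-2B (0.18 with limma adjusted p = 0.0397, and -0.43 with limma adjusted p = 0.246). Without 10 Gy replicate 2 the BEAS-2B value was -0.45 (limma adjusted p = 0.118). The A549 call ended without A549 control replicate 1 or 2 or 10 Gy replicate 1 or 2, at 0.14 to 0.18. ERCC4, a nuclease that SLX4 holds, passed in no line.

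Members that separate joined molecules did not move together. RMI2, a small subunit of the complex in which BLM unwinds DNA, was at 19.98, 20.8 and 18.6 FPKM in H446 controls and 11.3, 10.97 and 11.4 after 10 Gy. The H446 groups were far apart, and RMI2 fell by 0.77 (standard error 0.05, limma adjusted p = 2.58e-06). In A549 it was at 14.3, 12.9 and 13.7 and then 13.1, 13.9 and 13.4 FPKM, overlapping groups with a log2 fold change of -0.02 (limma adjusted p = 0.812). MUS81, the nuclease that cuts joined molecules, was at 15.7, 15.7 and 16.4 FPKM in A549 controls and 10.3, 9.48 and 10.2 after 10 Gy, a fall of 0.62 (standard error 0.05, limma adjusted p = 1.48e-06). In H446 MUS81 was at 13.4, 15.2 and 13.1 and then 14.8, 14.1 and 14.03 FPKM, which overlap. EME1, the partner MUS81 needs to cut, went the other way. It was at 7.61, 8.16 and 8.11 FPKM in A549 controls and 9.70, 10.8 and 9.82 after 10 Gy, and at 8.36, 8.37 and 9.34 and then 12.4, 10.9 and 10.9 FPKM in H446. EME1 rose without overlap in both lines, by 0.31 in A549 and 0.35 in H446 (limma adjusted p 0.000917 and 0.0022). MUS81 shares 13.9% of its exonic bases with CFL1 and EME1 16.4% with LRRC59, both on the opposite strand. CFL1 rose by 0.11 and LRRC59 fell by 0.18 in A549, each against the direction of the member it overlaps. Other partners went with their member in H446: LRRC41, which shares 25.1% of the exonic bases of RAD54L, fell by 0.26, and VRK2, which shares 18.7% of those of FANCL, fell by 0.20. In A549 VRK2 fell by 0.20 while FANCL rose.

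RMI1, the other small subunit of the BLM complex, fell in A549 from 10.4, 10.1 and 9.89 to 7.35, 7.45 and 6.46 FPKM and in H446 from 14.6, 14.4 and 14.5 to 12.7, 12.4 and 12.6 FPKM. No groups overlapped, and the log2 fold changes were -0.46 and -0.19 (limma adjusted p 7.28e-05 and 0.00622). BLM rose in H446 from 10.9, 10.4 and 11.3 to 12.6, 13.2 and 13.7 FPKM and fell in A549 from 9.54, 9.48 and 9.11 to 7.59, 8.99 and 7.78 FPKM, again without overlap (0.25 and -0.19, limma adjusted p 0.00384 and 0.0288). The A549 call of BLM ended without A549 control replicate 1 or 2 or 10 Gy replicate 1 or 3, at -0.18 to -0.15.

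H446 and A549 responses share no control library. Of the 23 members called in H446 and the 20 called in A549, 13 were the same genes, 56.5% and 65.0% of each list, where independent lists of these sizes would share 12.4. Over the 10811 genes tested in both lines, 2256 were called in both, 53.8% and 40.1% of each list, where independent lists would share 2182. The direction was the same for 10 of the 13 members and 1274 of the 2256 genes. FANCD2, EME1 and FANCM rose in both, RBBP8, EXO1, RAD51D, XRCC3, RAD54L, FANCC and RMI1 fell in both, MRE11 and FANCL fell in H446 and rose in A549, and BLM did the reverse. Irradiated libraries lay above all controls for 7 members and below them for 16 in H446, beside 20.4% and 29.9% of genes. In A549 these counts were 8 and 12, beside 29.0% and 29.5%. Base composition differed between libraries, and in H446 it moved with the treatment: the Spearman correlation across genes between a library's deviation and GC content was 0.35 to 0.46 in controls and -0.50 to -0.11 after 10 Gy. In BEAS-2B the same correlation was -0.63, 0.01 and -0.38 in controls and 0.45, 0.70 and -0.31 after 10 Gy, highest in the replicate 2 that stood apart. With the GC trend removed, BEAS-2B had 0 members called and 32 below 0. There 14 members had an unadjusted p under 0.05 in limma, beside 1124 of 11642 genes. Median GC content was 40.1% for the 7 members that rose in H446 and 47.9% for the 16 that fell. In H446 with the GC trend removed, 5 of the 7 rises and 12 of the 16 falls were called again, MUS81 was added to the rises, and XRCC2, UBE2T, RAD54L, FANCE, FANCG and SLX4 lost their calls. In that setting 1814 genes were called higher and 1703 lower in H446, against 1698 and 2709 without it, and quantile normalization gave 2171 and 2183. In A549 all 20 calls were made again and FANCB was added.

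Other settings ended further calls. The fit of all 18 libraries ended those of MRE11, XRCC2, RAD54L and UBE2T in H446 and of NBN, BRCA2, RAD51D, RAD51C and BRIP1 in A549. Taking the replicate number as a block ended XRCC2 in H446 and BRIP1 in A549. Without a filter on low values, XRCC2, RAD54L and SLX4 in H446 and NBN, BLM and BRIP1 in A549 lost their calls. Quantile normalization ended MRE11, RAD54L and SLX4 in H446 and NBN in A549, and equal totals ended MRE11 and RAD54L in H446 and BRIP1 in A549. A fit without the intensity trend ended RAD54L and UBE2T in H446. FANCD2, EME1, FANCM, EXO1, RBBP8, XRCC3, FANCC and RMI1 kept their calls in both lines in all of these.

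The promoters of the members were searched for motifs of cell cycle promoters, and those of members that moved in the same direction in H446 and A549 cells are described by gene. Sequences were those of RefSeq (build GRCh38.p14), from 250 bases before to 50 after the gene start, and held 33 of the 37 members. The motifs were the E2F site (TTTGGCGC, TTTCCCGC, TTTGCCGC or TTTCGCGC), the cell cycle homology element (TTTGAA) and the CCAAT box (CCAAT), each on both strands, and no motif contains another. An E2F site was in 15.2% of the members' promoters and in 4.7% of the 14417 promoters of genes in the data, the homology element in 9.1% and 11.2%, and the CCAAT box in 36.4% and 36.3%. Among the genes that rose in both lines, FANCD2 (chr3:10026187-10026486, plus strand) held an E2F site and FANCM (chr14:45135680-45135979, plus strand) CCAAT boxes, whereas EME1 held none of these letters. Among those that fell in both, EXO1 (chr1:241847954-241848253, plus strand) held an E2F site, FANCC (chr9:95317660-95317959, minus strand) E2F sites and a homology element, and RMI1 (chr9:83980109-83980408, plus strand), XRCC3 (chr14:103715402-103715701, minus strand) and RAD54L (chr1:46247438-46247737, plus strand) CCAAT boxes. RBBP8 and RAD51D held none. The sequences shown are those of the 7 genes with a shared rise or fall and a match, 5' to 3' on the strand of the gene, with the motifs in capitals. A match is a description and not a bound site.
FANCD2: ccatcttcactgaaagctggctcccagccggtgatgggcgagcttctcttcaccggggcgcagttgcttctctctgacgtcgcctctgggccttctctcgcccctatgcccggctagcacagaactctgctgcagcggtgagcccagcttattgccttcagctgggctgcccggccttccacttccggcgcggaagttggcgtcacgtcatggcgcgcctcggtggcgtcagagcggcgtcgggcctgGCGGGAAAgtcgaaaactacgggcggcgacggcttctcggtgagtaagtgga
FANCM: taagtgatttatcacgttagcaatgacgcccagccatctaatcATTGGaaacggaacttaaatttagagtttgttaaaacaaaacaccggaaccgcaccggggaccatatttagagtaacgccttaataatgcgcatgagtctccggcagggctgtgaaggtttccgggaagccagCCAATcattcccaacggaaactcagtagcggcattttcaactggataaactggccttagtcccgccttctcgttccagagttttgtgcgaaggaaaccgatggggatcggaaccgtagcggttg
EXO1: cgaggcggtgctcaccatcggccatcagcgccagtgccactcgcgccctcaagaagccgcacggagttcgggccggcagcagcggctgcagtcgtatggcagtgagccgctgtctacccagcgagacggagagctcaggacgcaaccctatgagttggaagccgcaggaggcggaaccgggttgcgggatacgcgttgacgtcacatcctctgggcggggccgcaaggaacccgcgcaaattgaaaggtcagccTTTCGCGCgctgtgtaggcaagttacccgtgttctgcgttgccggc
FANCC: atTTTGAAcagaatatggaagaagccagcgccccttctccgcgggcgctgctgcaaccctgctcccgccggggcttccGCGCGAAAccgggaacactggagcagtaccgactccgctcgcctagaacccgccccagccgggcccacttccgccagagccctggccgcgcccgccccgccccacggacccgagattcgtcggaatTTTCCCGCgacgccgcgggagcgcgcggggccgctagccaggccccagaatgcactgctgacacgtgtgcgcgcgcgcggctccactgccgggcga
RMI1: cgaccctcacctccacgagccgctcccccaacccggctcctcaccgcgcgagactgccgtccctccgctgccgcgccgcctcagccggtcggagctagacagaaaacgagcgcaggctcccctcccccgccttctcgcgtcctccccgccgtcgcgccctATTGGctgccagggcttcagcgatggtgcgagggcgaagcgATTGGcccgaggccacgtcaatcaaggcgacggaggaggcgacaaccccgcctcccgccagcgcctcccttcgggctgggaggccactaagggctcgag
XRCC3: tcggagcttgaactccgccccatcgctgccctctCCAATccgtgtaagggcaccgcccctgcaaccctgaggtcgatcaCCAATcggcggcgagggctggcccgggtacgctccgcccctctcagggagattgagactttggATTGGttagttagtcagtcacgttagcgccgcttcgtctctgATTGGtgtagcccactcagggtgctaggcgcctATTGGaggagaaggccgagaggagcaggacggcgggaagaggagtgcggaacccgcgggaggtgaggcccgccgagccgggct
RAD54L: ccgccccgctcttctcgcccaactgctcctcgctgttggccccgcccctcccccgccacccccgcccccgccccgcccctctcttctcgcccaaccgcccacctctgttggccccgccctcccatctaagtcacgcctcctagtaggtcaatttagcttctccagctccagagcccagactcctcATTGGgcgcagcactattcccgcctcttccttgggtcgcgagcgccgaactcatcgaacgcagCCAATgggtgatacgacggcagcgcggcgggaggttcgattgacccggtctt
E2F letters thus occurred in FANCD2, which rose, and in EXO1 and FANCC, which fell, so they occurred in genes of both directions. The FANCD2 match spans the gene start and the EXO1 match lies after it.

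Whether the response differed between lines was tested directly, as the difference of fold changes in a fit of all 18 libraries over 13071 genes. That fit has 1 estimate of the spread per gene for the 3 lines, which can understate the error of a line that varies more. For RMI2 after 10 Gy the SD was 2.58 FPKM in BEAS-2B and 0.226 in H446. BEAS-2B against H446 differed for 11 members, with 4 higher and 7 lower in BEAS-2B, beside 13.7% and 8.99% of genes. The largest were FANCD2 (-0.68), FANCB (-0.68), RMI2 (0.67) and RAD51D (0.60), with limma adjusted p of 7.06e-05, 0.000991, 0.00185 and 0.0028. Without BEAS-2B 10 Gy replicate 2 these values were -0.73, -0.64, 0.52 and 0.52, all called. The count was again 11, while the share of all genes called went from 22.7% to 18.5%. BRCA1 gained a call (-0.28, limma adjusted p = 0.0388) and RAD54B lost its own (limma adjusted p = 0.0791). The other members called were XRCC2 (-0.53), XRCC3 (0.52), BLM (-0.43), EME1 (-0.59), BRIP1 (-0.45), FANCC (0.30) and RAD54B (-0.30). Without BEAS-2B 10 Gy replicate 2 these were -0.50, 0.42, -0.41, -0.66, -0.47, 0.32 and -0.27. FANCD2, FANCB, BLM, XRCC2 and EME1 rose in H446 while their mean in BEAS-2B was lower after 10 Gy. FANCC lost its call without H446 control replicate 3, at 0.24, and BRIP1 without BEAS-2B control replicate 1, BEAS-2B 10 Gy replicate 1, H446 control replicate 2 or H446 10 Gy replicate 3, at -0.42 to -0.37. RAD54B kept its call only when the library left out was BEAS-2B control replicate 2, BEAS-2B 10 Gy replicate 3 or H446 10 Gy replicate 1, and was otherwise at -0.32 to -0.26. Without BEAS-2B 10 Gy replicate 3, 19 members were called, and the share of all genes called went from 22.7% to 34.7%. Under quantile normalization the split of the members was 3 higher and 10 lower, and that of all genes 1236 and 1542 in place of 1796 and 1175. With the replicate number as a block, 4 members were higher and 10 lower, beside 25.4% of genes. With the GC trend removed, 3 members were higher and 6 lower, beside 628 and 739 genes. These 9 included gained calls, since XRCC3, RAD54B, FANCC and BRIP1 lost their calls. RAD54B also lost it without a filter on low values and FANCC under quantile normalization.

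BEAS-2B against A549 differed for 15 members, 5 higher and 10 lower, beside 16.0% and 14.6% of genes. EXO1 (0.62), BRIP1 (-0.61), FANCL (-0.60) and MUS81 (0.59) led, with limma adjusted p of 1.53e-05, 0.00258, 0.00012 and 5.49e-05. Without BEAS-2B 10 Gy replicate 2 they were 0.60, -0.62, -0.65 and 0.56, all called, and 13 members were called, beside 30.0% of genes. FANCD2 was next (-0.58), followed by EME1 (-0.55), FANCB (-0.49), MRE11 (-0.45), FANCC (0.36) and RMI1 (0.27), which kept their calls whichever library was left out. Without BEAS-2B 10 Gy replicate 2 these were -0.63, -0.61, -0.45, -0.43, 0.38 and 0.25. XRCC2 (-0.43) lost its call without BEAS-2B control replicate 1, BEAS-2B 10 Gy replicate 1 or A549 control replicate 2, at -0.36, and FANCI (-0.28) without BEAS-2B control replicate 1, A549 control replicate 2 or A549 10 Gy replicate 2, at -0.25 to -0.24. FANCM (-0.37) lost it without BEAS-2B control replicate 1, BEAS-2B 10 Gy replicate 2, A549 control replicate 2 or 3 or A549 10 Gy replicate 2 or 3, at -0.37 to -0.26. FAN1 (-0.25) lost it without BEAS-2B control replicate 1, BEAS-2B 10 Gy replicate 1, A549 control replicate 2 or A549 10 Gy replicate 2 or 3, at -0.25 to -0.21. RBBP8 (0.24) lost it without BEAS-2B control replicate 2, BEAS-2B 10 Gy replicate 2 or 3, A549 control replicate 1 or 2 or A549 10 Gy replicate 1 or 3, at 0.19 to 0.23. Other settings also ended calls here: removing the GC trend or the filter that of FANCM, quantile normalization that of RBBP8, and equal totals or the replicate block that of FAN1.

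A549 against H446 differed for 10 members, 6 higher and 4 lower in A549, beside 19.3% and 15.3% of genes. RMI2 (0.75), MUS81 (-0.67), EXO1 (-0.60) and BLM (-0.44) differed most (limma adjusted p 0.000214, 1.06e-05, 1.74e-05 and 0.00329). FAN1 (0.32), FANCL (0.42), RAD51D (0.41), MRE11 (0.37), FANCA (0.36) and RMI1 (-0.27) also differed, and FANCA lost its call without H446 control replicate 2, H446 10 Gy replicate 3, A549 control replicate 1 or A549 10 Gy replicate 2, at 0.30 to 0.35. The rises of FANCD2 and EME1 did not differ between the cancer lines beyond the threshold (-0.10 and -0.05, limma adjusted p 0.373 and 0.79), which does not show that they were equal. Quantile normalization gave 4 members higher and 5 lower, with RAD51D and FANCA losing their calls. The split of all genes also turned in that setting, to 2248 higher and 2301 lower in place of 2524 and 2002. Removing the GC trend ended the calls of FANCA and RMI1. With all libraries, BRCA1 and BRCA2 passed in none of the 3 comparisons of responses. The comparisons share libraries, so they are not independent of each other.

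Other genes of recombination and the Fanconi pathway were taken from a list of 43. In BEAS-2B none of the 40 tested was called, and 30 had a log2 fold change below 0. In H446 6 of 40 rose and 19 fell, beside 14.8% and 23.6% of genes, and in A549 9 of 41 rose and 8 fell, beside 25.3% and 26.4%. CENPX, which helps FANCM hold DNA, was at 65.1, 55.5 and 64.7 FPKM in H446 controls and 33.8, 35.1 and 30.9 after 10 Gy, separate groups with a log2 fold change of -0.87 (limma adjusted p = 5.74e-06). Its partner CENPS fell too (-0.41). EME2 had a log2 fold change of -0.42, with 1.73, 1.13 and 1.09 FPKM in H446 controls and 0.54, 0.82 and 0.81 after 10 Gy. EME2 is counted among the 19 but met the filter of 1 FPKM through its controls alone, so no conclusion is drawn from its value. POLQ, the polymerase of an error-prone end-joining route, was at 6.56, 6.71 and 6.18 FPKM in H446 controls and 9.95, 10.6 and 10.99 after 10 Gy, and rose in A549 as well (0.62 and 0.31, limma adjusted p 3.15e-05 and 0.003). GEN1, a nuclease that cuts joined molecules, rose in H446 (0.42, limma adjusted p = 0.000736). In A549 USP1, which removes ubiquitin from FANCD2, went from 33.9, 31.2 and 35.95 to 21.2, 21.8 and 21.9 FPKM, a fall of 0.61 (limma adjusted p = 1.58e-06). PSMC3IP, a cofactor of strand exchange, and TOP3A, the topoisomerase of the BLM complex, fell in A549 (-0.54 and -0.39), and RPA3, a subunit of the protein that coats single strands, rose (0.27). SLX1A and SLX1B, near-identical copies, were listed with the same value in every library and are uncertain.

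Genes of DNA replication, mitosis and the p53 response were read beside the members. In H446 28 of 30 replication genes fell and 1 rose, and all 24 mitosis genes rose, with median log2 fold changes of -0.49 and 0.80. There 2 of 12 p53 targets were called, both higher. Over all genes tested in H446, 14.8% were called higher and 23.6% lower. In A549 15 of 30 replication genes fell and 4 rose (median -0.17), 9 of 24 mitosis genes rose and 3 fell (median 0.06), and 11 of 12 p53 targets rose (median 1.38). Over all genes tested in A549, 25.3% were called higher and 26.4% lower. BEAS-2B had no call in these lists, with medians of -0.13, 0.08 and 0.64 for replication, mitosis and p53 targets. The members' median log2 differences from the control mean were -0.19, -0.17 and -0.14 in irradiated BEAS-2B replicates 1, 2 and 3, with 32, 25 and 29 members below that mean. In replicate 2, 7 members lay above all controls, beside 33.3% of genes tested, against 2 in each of replicates 1 and 3, beside 30.1% and 26% of genes. Below all controls lay 28, 23 and 23 members in replicates 1, 2 and 3, beside 31.6%, 34.3% and 25.8% of genes. Its replication median was 0.02 and its mitosis median -0.14, against -0.16 and -0.26 and against 0.17 and 0.24 in the other irradiated libraries. Whether cell cycle phase had a part in the members' changes was not tested.

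**Figure D4:**
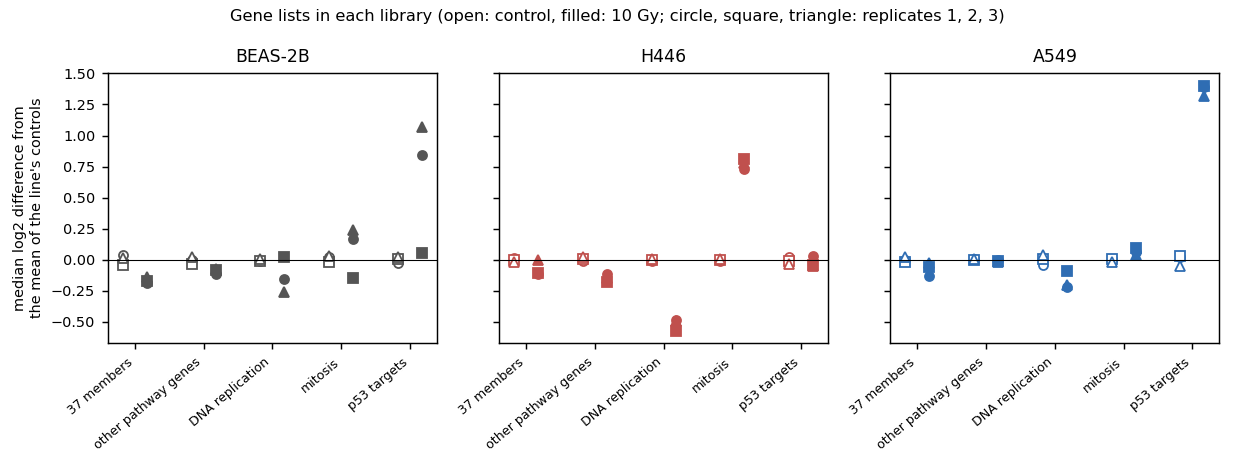
Median log2 difference from the mean of the line's controls for the 37 members and 4 other gene lists in each library, with open points for controls, filled points for 10 Gy and a symbol for each replicate. In H446 after 10 Gy the mitosis medians lie from 0.73 to 0.81 and the replication medians from -0.57 to -0.48, while the members' lie from -0.12 to -0.00.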

How the data were processed

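The table used here holds 1 column per library and 18475 genes by Entrez identifier. Scaling to FPKM, by library size and length of transcript, was done by the authors before the values were deposited, an inference from the values, since the header names no unit. The values have decimals and column totals differ from each other, so they are neither counts nor TPM. The submitters' notes name HISAT2 2.0.4, Bowtie2 2.2.5, RSEM 1.2.12 and the human build hg38, without a role or an order for any of them. Libraries were single-end, made from poly(A) RNA and read over 50 bases. All 18 columns were used.

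limma 3.58.1 in R 4.3.3 was run on log2(FPKM + 1) with an intensity trend, for genes of at least 1 FPKM in at least 3 libraries of the fit. Responses used the 6 libraries of a line, response differences all 18 libraries, and control levels the 9 controls. Benjamini-Hochberg adjusted p under 0.05, over all genes tested, was the threshold for a call. Tables were made with pandas 2.3.3 and numpy 2.4.6 in Python 3.11.15, and plots with matplotlib 3.10.9.

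Alternatives were pseudocount, filter, scaling, trend, threshold, GC trend, replicate block, a fit of all libraries and each library left out. The count of BEAS-2B members with separate groups, without BEAS-2B 10 Gy replicate 2, was added after seeing the data. By rule, values were to be printed for BRCA1, BRCA2 and FANCD2 always, and for the called members with the largest differences: up to 6 per line, 4 per pair of responses, 3 per pair of controls, and 5 other pathway genes per line. Further members, such as MRE11, RAD50, NBN, RAD52, FANCF, UBE2T, FANCM and EME1, were described for their role after their values were seen. Members and gene lists were chosen with earlier results of these data known. Some items withheld for evaluation are not reported here.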

Additional observations from a re-analysis of the deposited data

Results flagged for a closer look

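The response to 10 Gy differed between BEAS-2B and H446 cells (BEAS-2B minus H446, tested as a difference of log2 fold changes in limma) for FANCD2 by -0.68 (adjusted p = 7.06e-05) and for FANCB by -0.68 (adjusted p = 0.000991). The same difference was 0.67 for RMI2 (adjusted p = 0.00185) and 0.60 for RAD51D (adjusted p = 0.0028).

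Between BEAS-2B and A549 cells the response differed for EXO1 by 0.62 (adjusted p = 1.53e-05) and for BRIP1 by -0.61 (adjusted p = 0.00258). FANCL differed by -0.60 (adjusted p = 0.00012) and MUS81 by 0.59 (adjusted p = 5.49e-05).

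Between A549 and H446 cells (A549 minus H446) the response differed for RMI2 by 0.75 (adjusted p = 0.000214) and for MUS81 by -0.67 (adjusted p = 1.06e-05). EXO1 differed by -0.60 (adjusted p = 1.74e-05) and BLM by -0.44 (adjusted p = 0.00329).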

How the results depend on the processing

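The count of members called was recomputed under each alternative, 166 values in all, of which 153 were within 1.5 times the count of the first analysis and 13 were not. For the 101 called results of the named members, a part of all member calls, none of 1786 values reversed its sign, 1627 kept the call and 159 lost it. Only 46 of the 101 kept the call under every alternative. The limit of 0.5 on the log2 scale ended 54 of the 159.

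In BEAS-2B the count went from 0 to 12 in a fit of all 18 libraries in 1 fit and ranged from 0 to 1 with each library left out, with 1 call without 10 Gy replicate 2. The number of members with all irradiated below all control libraries went from 13 to 21 without that library. The cause of these changes was not tested.

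With the replicate number as a block, 4 members were called in BEAS-2B. Correlations across genes between control and irradiated replicates of the same number were -0.125, 0.324 and 0.311 in BEAS-2B, 0.19, 0.01 and 0.082 in H446, and 0.01, -0.055 and -0.099 in A549. Between different numbers they ranged from -0.498 to 0.379 in BEAS-2B, -0.179 to 0.114 in H446 and -0.025 to 0.083 in A549. These values show no clear pairing and do not settle whether the numbers mark pairs.

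Requiring a log2 fold change of at least 0.5 left 3 members in H446 (beside 2.81% of genes), 2 in A549 (7.81%), 7 for BEAS-2B minus H446 (5.78%), 6 for BEAS-2B minus A549 (8.93%), 3 for A549 minus H446 (11.7%), 16 for H446 against BEAS-2B controls (51.3%) and 18 for H446 against A549 controls (55.3%). With adjusted p under 0.01, 9 members were left for BEAS-2B minus A549, beside 17.7% of genes. The count for BEAS-2B minus H446 ranged from 9 to 19 with each library left out, with 19 without BEAS-2B 10 Gy replicate 3, where the share of all genes called was 34.7% against 22.7% with every library.

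With 3 libraries per group, small changes are missed, more so in BEAS-2B, and no absence of a call shows that a gene did not change. Depth, unit and strand use were inferred or not stated, and protein levels, cell cycle phase and other times were not analysed here.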
